A study of Mus musculus with 14 samples.

Results

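The 37 genes described here carry out or control fatty acid oxidation and ketogenesis, and they were chosen by name from the 17656 genes listed for each of 14 mouse livers. All 37 were found, and none was listed at 0 in any liver. Each library was taken as the liver of 1 mouse. The values are TPM, the transcripts of a gene per 1000000 transcripts after correction for gene length. Wild-type (WT) and Ythdf1-/- mice (KO below) of the C57BL/6 strain, 8 weeks old, received saline or concanavalin A (ConA), a plant lectin that activates T cells and causes hepatitis. ConA was given into a vein at 8 mg/kg, and tissue was taken at 8 h. Saline was given to 3 mice of each genotype and ConA to 4 of each. The deletion was made with CRISPR and is present in every cell of the body, so a difference cannot be assigned to hepatocytes or to immune cells.

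Fatty acids enter the hepatocyte, are joined to coenzyme A, and cross the inner mitochondrial membrane as carnitine esters. Repeated rounds of beta-oxidation then release acetyl-CoA, and the electrons pass through the electron transfer flavoprotein to the respiratory chain. Very long and dicarboxylic chains are first shortened in peroxisomes, and in fasting the liver turns much of the acetyl-CoA into ketone bodies for other organs. Many of these genes are switched on by the nuclear receptor PPAR alpha together with its partner RXR.

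Several libraries stood apart. WT saline replicates 2 and 3 were nearly identical, with a median absolute log2 ratio of 0.0633 over genes at 10 TPM or more, while the other 17 pairs within a group had 0.115 to 0.373. Replicate 3 of WT ConA and replicate 3 of KO ConA had median ratios to the other libraries of 0.791 and 0.847, against 0.966 to 1.19 elsewhere. Results that rest on these libraries are given with and without them. Ythdf1 itself was at 12.0 to 13.9 TPM in WT and 18.4 to 20.8 in KO mice under saline, and after ConA at 18.7 to 25.6 in WT and 15.5 to 26.2 in KO. Under saline Ythdf1 was thus higher in every KO liver than in any WT liver. A level over the whole gene cannot show whether the deleted stretch is missing, so the genotype labels were not tested. All 7 hepatocyte markers were present in every group, while 5 adipocyte markers summed to at most 0.99 TPM and 4 skeletal muscle markers to at most 0.17 TPM in any liver.

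The first question was how the pathway responded to ConA in each genotype. In WT liver 32 of the 37 genes fell and 2 rose, Pdk4 and Plin2. A gene was called when its Benjamini-Hochberg adjusted p over all tested genes was under 0.05 in limma on log2(TPM + 1), and on this scale the change of a gene at low TPM is understated. Of all 10768 genes tested in that comparison, 31.0% were called lower and 22.0% higher. The median log2 fold change was -1.07 over the 37 genes and -0.07 over all genes tested. In KO liver 20 of 36 tested genes fell and 3 rose, against 30.7% lower and 33.9% higher of all 10988 genes tested. The median there was -0.60 over the 36 genes and 0.07 over all genes. With the WT saline pair averaged and counted as 1 mouse, 30 of the 37 genes were called in WT liver. Without replicate 3, 34 genes were called in WT liver and 23 in KO liver.

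The summed TPM of the 37 genes was 16690 to 20321 in WT and 19606 to 25679 in KO mice under saline, and after ConA 6895 to 7643 in WT and 6827 to 8389 in KO. Both ConA groups were below every saline liver. Fabp1 alone supplied a mean of 10544 of 18052 TPM in WT saline and 15007 of 22067 in KO saline. Without Fabp1 the sum was 6713 to 7931 TPM in WT and 5910 to 8191 in KO mice under saline, so that the higher saline sum of KO mice rested on that gene, and 3712 to 4247 in WT and 3968 to 5289 in KO after ConA. Markers of hepatocytes moved with these genes. The 7 hepatocyte markers summed to 119400 to 138300 TPM in WT saline and 113800 to 136400 in KO saline, while after ConA they summed to 59760 to 83450 in WT and 53920 to 66560 in KO. Of these markers 5 fell in WT liver, with a median log2 fold change of -0.71 over the 7, and 6 fell and 1 rose in KO liver, with a median of -0.85. Of 5 periportal markers 4 fell in WT liver (median -1.90) and all 5 in KO liver (-1.98). Of 5 pericentral markers 4 fell in WT (-1.22), and 3 fell and 1 rose in KO (-0.55). Of 6 Kupffer cell markers 5 fell in WT (-1.97) and 3 in KO (-0.91). The 6 neutrophil markers rose in both genotypes, from sums of 3.64 to 10.5 TPM under saline to 318 to 952 TPM after ConA. In RNA from whole liver, fewer hepatocytes and less of a transcript per hepatocyte cannot be told apart, and the part of cell composition in these results was not tested.

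**Figure D1:**
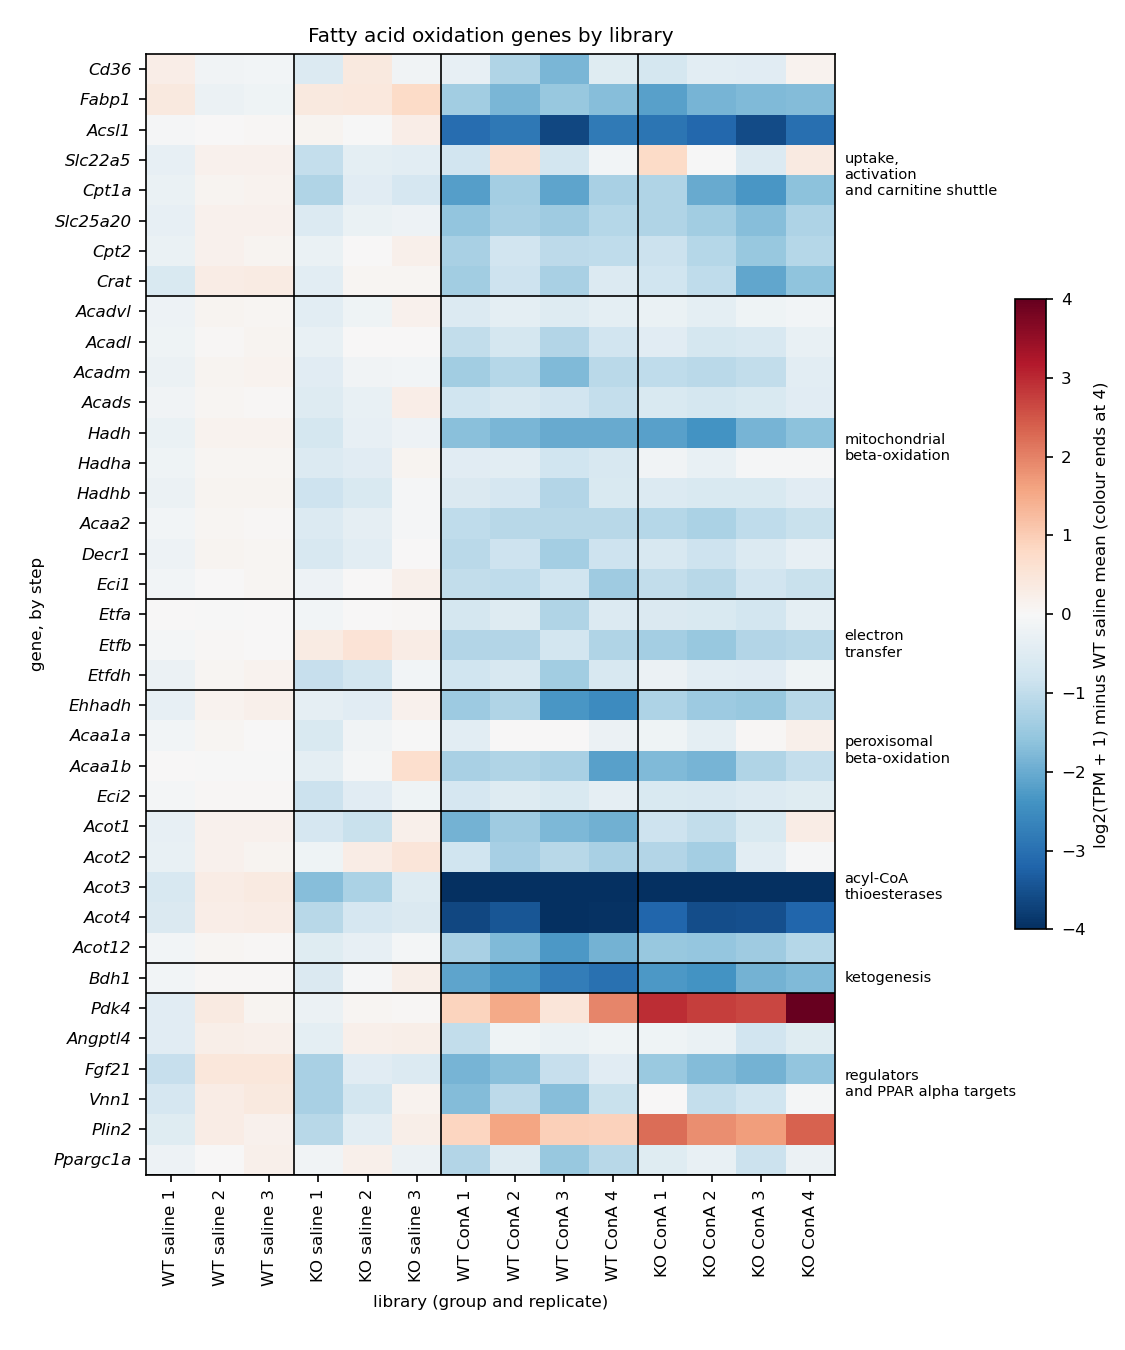
Heat map of log2(TPM + 1) minus the WT saline mean for the 37 genes (rows, grouped by step) in the 14 livers (columns, by group and replicate), blue for lower and red for higher, with colours ending at 4 in both directions. Blue fills most of the ConA columns, Acot3, Acot4 and Acsl1 are the darkest rows, and Pdk4 and Plin2 are the rows in red.

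Among the genes of uptake, activation and the carnitine shuttle, 7 of 8 fell in WT liver and 6 of 8 fell in KO liver. Acsl1, the main acyl-CoA synthetase of liver, had the largest fall of the step. It was at 214, 223 and 229 TPM in WT saline, 237, 221 and 265 in KO saline, 25.97, 29.5, 17.04 and 30.2 in WT ConA and 28.3, 24.1, 17.7 and 26.7 in KO ConA. Every ConA liver was far below every saline liver, and the mean was 8.62-fold lower in WT and 10-fold lower in KO. The log2 fold changes were -3.10 ± 0.19 (SE, adjusted p = 2.84e-06) and -3.28 ± 0.16 (adjusted p = 4.99e-08).

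Cpt1a makes the acylcarnitines that enter mitochondria and is the rate-limiting step of the pathway. Its TPM were 97.4, 128 and 130.0 in WT saline and 24.8, 44.98, 26.5 and 47.2 in WT ConA. In KO mice they were 50.9, 84.9 and 74.1 under saline and 50.7, 28.2, 22.6 and 37.05 after ConA, where the highest ConA liver lay just under the lowest saline liver. Cpt1a fell by 3.30-fold in WT (log2 fold change -1.74 ± 0.25, adjusted p = 0.000338) and by 2.02-fold in KO (-1.02 ± 0.26, adjusted p = 0.00466). Cpt2, which turns the acylcarnitines back into acyl-CoA inside the mitochondrion, was at 79.7, 107 and 103 TPM in WT saline, 38.6, 55.6, 45.5 and 47.2 in WT ConA, 79.01, 97.3 and 109 in KO saline and 52.4, 42.8, 32.6 and 42.99 in KO ConA. The groups did not overlap in either genotype, with log2 fold changes of -1.03 (adjusted p = 0.000601) and -1.14 (adjusted p = 0.000138). Slc25a20, the carrier that brings acylcarnitines across the inner membrane, fell by 1.36 in WT and 1.04 in KO on the log2 scale.

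Fabp1, the fatty acid binding protein of liver and the most abundant gene of the 37, was at 8759 to 13608 TPM in WT saline and 2932 to 3931 in WT ConA. In KO mice it was at 13695 to 17488 under saline and 2293 to 3101 after ConA. It fell in both genotypes, with log2 fold changes of -1.61 ± 0.18 and -2.41 ± 0.16. The fatty acid transporter Cd36 was at 45.99, 34.99 and 35.1 TPM in WT saline and 30.6, 16.01, 10.2 and 27.1 in WT ConA, where it fell (log2 fold change -0.96, adjusted p = 0.0348). That call was lost with the WT saline pair averaged, without filter, without any single WT saline mouse, and without WT ConA replicate 2. In KO mice Cd36 was at 26.2, 51.1 and 34.8 TPM under saline and 23.04, 28.1, 27.9 and 42.1 after ConA, and the difference did not pass the test (-0.28, adjusted p = 0.325). Crat, which makes acetylcarnitine, fell in both genotypes, although its WT call was also lost with the pair averaged, without filter, and without WT saline replicate 2 or 3. The carnitine importer Slc22a5 was the exception of the step, called higher in KO liver (log2 fold change 0.73, adjusted p = 0.0377) and not called in WT liver (-0.23, adjusted p = 0.581). Its KO groups overlapped, at 8.36, 13 and 12.6 TPM under saline and 29.8, 17.1, 11.5 and 22.4 after ConA, and the call was lost without filter, with all 14 libraries in the fit, and without KO saline replicate 1 or 3 or KO ConA replicate 1 or 4.

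All 10 genes of mitochondrial beta-oxidation fell in WT liver, and their summed TPM went from 2975 ± 295 in WT saline (SD, n = 3) to 1474 ± 71.2 in WT ConA (SD, n = 4). In KO liver the sums were 2521 ± 453 under saline and 1679 ± 182 after ConA. The WT genes had log2 fold changes from -0.46 (Acadvl) to -1.88 (Hadh). In KO liver 5 of 10 fell, Acadl, Acadm, Hadh, Acaa2 and Eci1. Hadh, the dehydrogenase of short-chain hydroxyacyl-CoA, had the largest fall of the step in both genotypes. It was at 281, 378 and 373 TPM in WT saline, 106, 95.9, 83.03 and 83.8 in WT ConA, 208, 268 and 297 in KO saline and 74.99, 64.3, 94.1 and 109 in KO ConA. Every ConA liver was below every saline liver, and the log2 fold changes were -1.88 ± 0.15 (adjusted p = 1.18e-05) and -1.59 ± 0.19 (adjusted p = 2.74e-05).

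Acadm, the medium-chain acyl-CoA dehydrogenase, was at 235, 301 and 304 TPM in WT saline and 105, 125, 80.6 and 130.3 in WT ConA. In KO mice it was at 203, 254 and 256 under saline and 137, 132, 139.5 and 205 after ConA. The WT groups did not overlap, while the highest KO ConA liver, replicate 4, lay just inside the KO saline range. Acadm fell by 2.54-fold in WT (log2 fold change -1.35 ± 0.18, adjusted p = 0.000270) and by 1.55-fold in KO (-0.64 ± 0.17, adjusted p = 0.00552). The other acyl-CoA dehydrogenases differ in the chain length they take. Acadl fell in both genotypes (-0.90 in WT and -0.43 in KO, log2 scale), though its KO call was lost without KO saline replicate 2 or 3. Acadvl and Acads fell in WT (-0.46 and -0.78) and were not called in KO (-0.10, adjusted p = 0.575, and -0.41, adjusted p = 0.0557). The Acadvl call in WT was lost after rescaling, with the WT saline pair averaged, and without WT saline replicate 2 or 3. Acads was called in KO without KO saline replicate 1 and with all 14 libraries.

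Hadha and Hadhb encode the subunits of the mitochondrial trifunctional protein. Hadha was at 114, 137 and 136 TPM in WT saline, 94.2, 95.7, 72.98 and 81.5 in WT ConA, 87.7, 93.7 and 138 in KO saline and 116, 103, 124 and 125 in KO ConA. It fell in WT liver (log2 fold change -0.58 ± 0.14, adjusted p = 0.00664). In KO liver the saline and ConA values overlapped, and the difference of 0.16 ± 0.16 did not pass the test (adjusted p = 0.385), with a 95% interval of -0.19 to 0.51. Without KO saline replicate 3, the highest of its group, Hadha was called in KO liver. Hadhb likewise fell in WT (-0.75 ± 0.17, adjusted p = 0.00515), and its KO value of -0.07 ± 0.17 was not called (95% interval -0.44 to 0.30). In Hadhb 37.6% of the stretches of 50 bases are found in no other gene, and the gene that shares the most is Gm13910, which was not analysed here, so reads of Hadhb could have been split. Acaa2, a thiolase of the mitochondrial cycle, fell in both genotypes (-1.09 and -0.76), as did Eci1 (-1.06 and -0.95), an isomerase for unsaturated chains. Decr1, a reductase for polyunsaturated chains, fell in WT (-1.02) and was at -0.24 in KO (adjusted p = 0.239).

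The 3 genes of electron transfer fell in WT liver. Etfa and Etfb, the subunits of the electron transfer flavoprotein, also fell in KO liver, with log2 fold changes of -0.56 and -1.68 against -0.74 and -1.07 in WT. Etfb had the largest fall of the step in both genotypes, from 1107, 1222 and 1188 to 516, 519, 702 and 507 TPM in WT and from 1476, 1703 and 1447 to 457, 409, 518 and 543 TPM in KO. Only 32.7% of the stretches of 50 bases in Etfb are found in no other gene, and the gene that shares the most of them is Gm45233, which was not analysed here. Etfdh, the dehydrogenase that passes the electrons to ubiquinone, was at 86.3, 106 and 112 TPM in WT saline and 57.6, 64.7, 37.9 and 64.4 in WT ConA. It was at 52.6, 59.95 and 94.3 TPM in KO saline and 85.4, 75.7, 74.2 and 88.9 in KO ConA. The WT groups did not overlap (-0.87 ± 0.20, adjusted p = 0.00538), whereas in KO mice the 4 ConA livers lay within the saline range (0.27 ± 0.18, adjusted p = 0.210). Etfdh was called in KO liver without KO saline replicate 3.

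Of the 4 peroxisomal genes, 3 fell in WT liver and 2 in KO liver. Ehhadh, the peroxisomal bifunctional enzyme and a classical PPAR alpha target, was at 124, 174 and 179.6 TPM in WT saline, 57.4, 67.3, 30.3 and 26.8 in WT ConA, 124, 114 and 178 in KO saline and 66.1, 56.7, 54.3 and 72.5 in KO ConA. ConA and saline livers did not overlap in either genotype, and Ehhadh fell by 3.51-fold in WT (-1.88 ± 0.32, adjusted p = 0.000941) and 2.22-fold in KO (-1.12 ± 0.17, adjusted p = 0.000160). The WT ConA livers fell into a higher pair, replicates 1 and 2, and a lower pair. Of the peroxisomal thiolases, Acaa1b fell from 684, 671 and 677 to 274, 292, 273 and 149 TPM in WT and from 517, 647 and 1073 to 200.1, 187, 292 and 347 TPM in KO, the largest fall of the step in KO liver (-1.52, adjusted p = 0.000493). Acaa1a was not called in either genotype (-0.16 and 0.18). Of the stretches of 50 bases in the longest coding transcripts, 53.8% of Acaa1b and 64.9% of Acaa1a are found in no other gene, and each shares the most stretches with the other, so reads could be split between them. Eci2, an isomerase found in peroxisomes and mitochondria, fell in WT (-0.54, adjusted p = 0.00459) and not detectably in KO (-0.07, 95% interval -0.41 to 0.27).

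The acyl-CoA thioesterases, which split acyl-CoA into free acid and coenzyme A, included Acot3, which had the largest fall of the 37 genes in both genotypes. All 5 fell in WT liver and 4 in KO liver. Their summed TPM was 277 ± 75.9 in WT saline, 161 ± 51.5 in KO saline, 27.8 ± 5.07 in WT ConA and 53.8 ± 18.4 in KO ConA. The peroxisomal enzyme Acot3 was at 86.96, 168 and 177 TPM in WT saline and at 1.23, 1.64, 0.75 and 1.22 TPM in WT ConA, a mean 119-fold lower. In KO mice it was at 41.1, 56.8 and 96.5 TPM under saline and 3.09, 2.63, 5.45 and 5.63 after ConA, 15.4-fold lower. The log2 fold changes were -5.98 ± 0.26 (adjusted p = 4.04e-07) and -3.62 ± 0.30 (adjusted p = 1.95e-06). Acot4, also peroxisomal, was at 30.9, 56.95 and 58.4 TPM in WT saline and 2.81, 3.51, 1.5 and 2.12 in WT ConA, and at 21.1, 29.1 and 31.02 TPM in KO saline and 4.31, 3.11, 3.21 and 4.31 in KO ConA. It fell 19.6-fold in WT (-3.82 ± 0.27) and 7.25-fold in KO (-2.56 ± 0.18). Of the stretches of 50 bases, 78.3% of Acot3 and 85.6% of Acot4 are found in no other gene. The genes that share the most are Gm49366 for Acot3 and 4732463B04Rik for Acot4, so reads of both could have been split.

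The cytosolic Acot1 gave a different picture. It was at 29.04, 41.3 and 41.95 TPM in WT saline and 9.15, 13.2, 9.91 and 9.07 in WT ConA, a fall of 3.62-fold (-1.76 ± 0.18, adjusted p = 5.53e-05). In KO mice it was at 22.96, 19.5 and 42.9 TPM under saline and 20.6, 18.2, 23.98 and 45.9 after ConA, which overlapped (-0.08 ± 0.32, adjusted p = 0.845, 95% interval -0.79 to 0.63). The mitochondrial Acot2 fell in both genotypes (-1.13 and -0.94), but its KO groups overlapped and its KO call was lost without filter and without KO saline replicate 2 or 3. Acot1 and Acot2 share much of their sequence, with 66.4% and 72.3% of stretches of 50 bases in no other gene, so reads could be split between them. Acot12, a cytosolic acetyl-CoA hydrolase, was at 37.5 to 42.3 TPM in WT saline and 7.33 to 15.8 in WT ConA, and at 28.6 to 38.5 TPM in KO saline and 13.1 to 17.8 in KO ConA, and fell in both genotypes (-1.82 and -1.12).

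Acot2, Acot1, Acot4 and Acot3 lie in that order on chr12:83987861-84060400 (GRCm38.p6), all on the plus strand, and Acot12 lies on chromosome 13. The 4 neighbours started from different levels in WT saline liver, with means of 6.91 ± 1.37 TPM for Acot2, 37.4 ± 7.26 for Acot1, 48.8 ± 15.5 for Acot4 and 144 ± 49.4 for Acot3 (SD, n = 3). In WT ConA liver the means were 2.62 ± 0.63, 10.3 ± 1.97, 2.48 ± 0.87 and 1.21 ± 0.36 TPM in the same order (SD, n = 4). The gene with the highest level of the 4 under saline had the lowest level after ConA in WT liver.

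Bdh1, the mitochondrial enzyme that interconverts acetoacetate and beta-hydroxybutyrate, stood for ketogenesis among the 37 genes. It was at 104, 117 and 116 TPM in WT saline, 25.1, 21.6, 15.7 and 13.3 in WT ConA, 74.4, 109 and 132 in KO saline and 22.2, 20.6, 29.6 and 32.1 in KO ConA. The highest ConA liver, at 32.1 TPM, lay well below the lowest saline liver, at 74.4 TPM. Bdh1 fell 5.95-fold in WT (log2 fold change -2.55 ± 0.21, adjusted p = 1.24e-05) and 4.03-fold in KO (-1.95 ± 0.21, adjusted p = 1.44e-05). Of 6 other genes of ketone body metabolism, 4 of 5 tested fell and 1 rose in WT liver, and 2 of 6 fell and 1 rose in KO liver.

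The regulators and PPAR alpha targets outside the enzyme steps did not move in 1 direction. Pdk4, the kinase that shuts off pyruvate dehydrogenase when fat is burned, was at 0.46, 1.56 and 1.16 TPM in WT saline, 2.69, 4.77, 1.81 and 6.81 in WT ConA, 0.72, 1.11 and 1.09 in KO saline and 14.4, 12.5, 11.7 and 34.7 in KO ConA. All ConA livers were above all saline livers, and Pdk4 rose 3.79-fold in WT (1.21 ± 0.34, adjusted p = 0.0147) and 18.8-fold in KO (3.16 ± 0.32, adjusted p = 8.53e-06). The WT call was lost at a filter of 5 TPM, where Pdk4 is no longer tested, without filter, and without WT saline replicate 1. Plin2, which coats lipid droplets, was at 136, 231 and 214 TPM in WT saline, 346, 564, 368 and 358 in WT ConA, 86.4, 141 and 223 in KO saline and 888, 685, 601 and 967 in KO ConA. Its groups did not overlap in either genotype, and it rose 2.11-fold in WT (1.08 ± 0.23, adjusted p = 0.00328) and 5.23-fold in KO (2.46 ± 0.28, adjusted p = 1.93e-05).

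Ppargc1a, the coactivator that drives oxidative genes, was low throughout, at 1.85, 2.29 and 2.73 TPM in WT saline and 0.46, 1.28, 0.14 and 0.50 in WT ConA, where it fell (-1.08 ± 0.22, adjusted p = 0.00301). In KO mice it was at 1.98, 2.78 and 1.77 TPM under saline and 1.32, 1.69, 0.79 and 1.80 after ConA, and the difference was not called (-0.41 ± 0.19, adjusted p = 0.0826). The pantetheinase Vnn1 was at 44.7, 88.5 and 93.8 TPM in WT saline, 21.02, 34.7, 21.4 and 38.00 in WT ConA, 28.4, 42.6 and 79.9 in KO saline and 73.1, 37.05, 41.2 and 68.1 in KO ConA. It fell in WT (-1.34 ± 0.30, adjusted p = 0.00465), and its KO groups overlapped (0.19 ± 0.33, adjusted p = 0.634).

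Fgf21, the hormone that liver releases in fasting, was at 1.26, 4.89 and 4.83 TPM in WT saline, 0.17, 0.34, 1.25 and 2.09 in WT ConA, 0.72, 2.10 and 1.92 in KO saline and 0.53, 0.27, 0.16 and 0.43 in KO ConA. It was called lower in WT (-1.23 ± 0.42, adjusted p = 0.0326) with overlapping groups, and was too low to be tested in KO liver. The WT call was lost with the WT saline pair averaged, without filter, without WT saline replicate 2 or 3, and without WT ConA replicate 1 or 2. Angptl4, a secreted inhibitor of lipoprotein lipase, was at 105, 171 and 168 TPM in WT saline, 73.03, 127, 119 and 129 in WT ConA, 109.9, 165 and 172 in KO saline and 127, 121, 84.95 and 104 in KO ConA. Its groups overlapped in both genotypes and neither difference was called (-0.40 ± 0.24 and -0.43 ± 0.18), although the KO difference was after rescaling and without KO saline replicate 1 or KO ConA replicate 1. WT saline replicate 1 was the lowest of its group for each of the 6 genes.

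**Figure D2:**
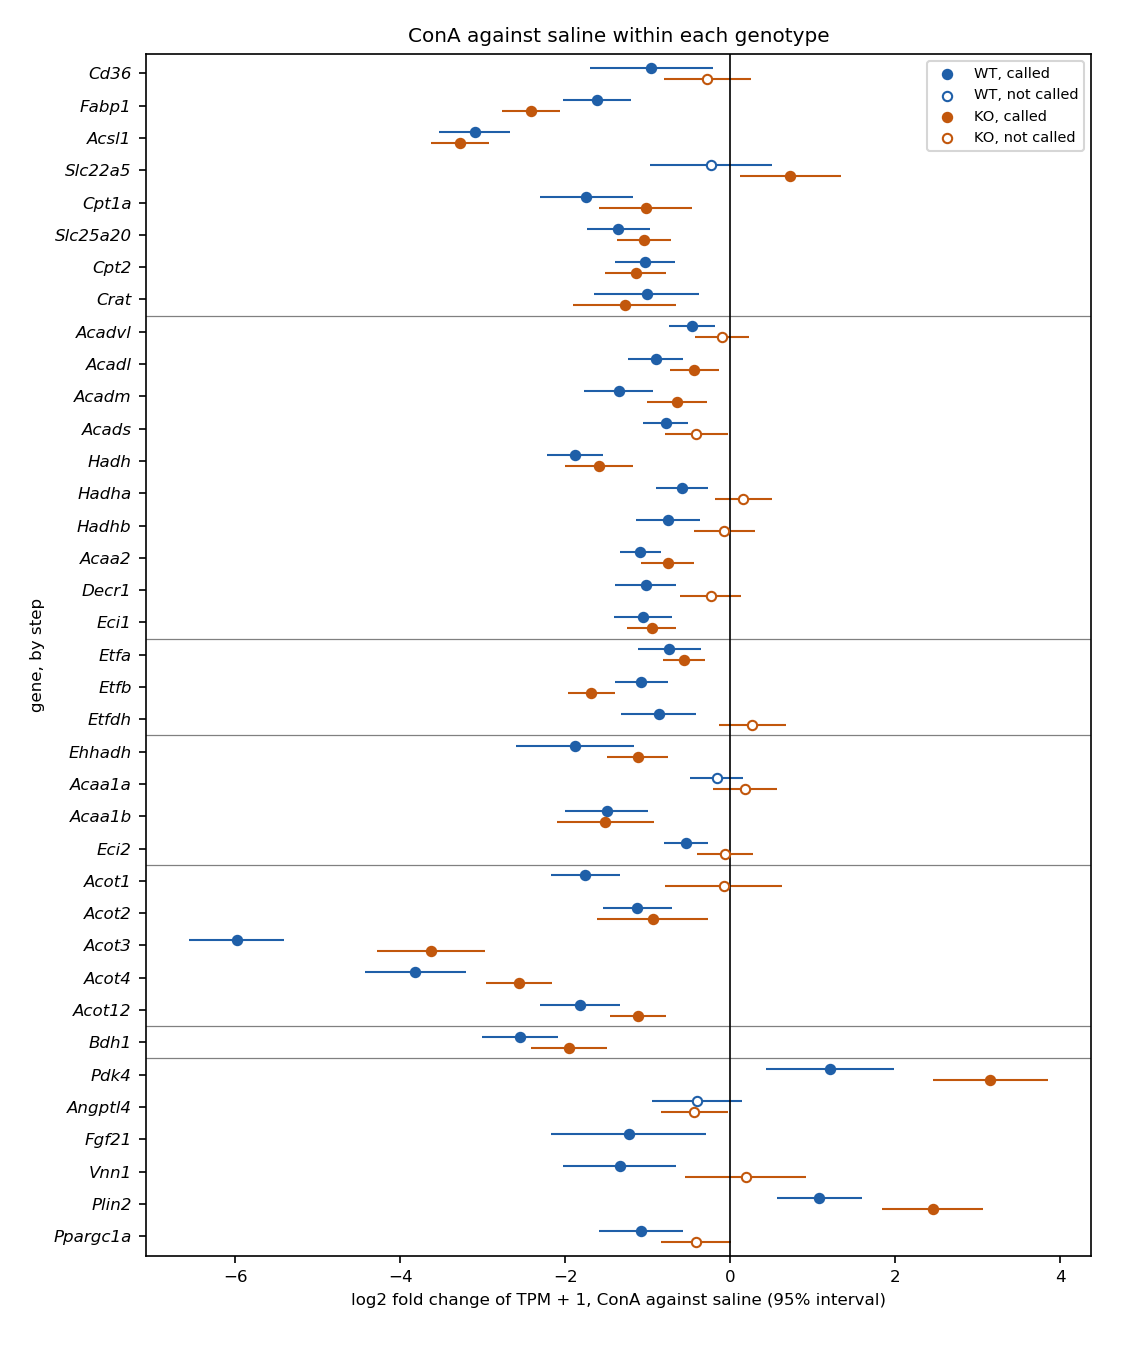
Log2 fold changes of TPM + 1 after ConA against saline with 95% intervals, for WT (blue) and KO (orange) mice, with genes grouped by step on the vertical axis and filled points for called genes. Most points lie left of 0 in both genotypes, from -5.98 for Acot3 in WT liver, and Pdk4 and Plin2 lie to the right in both.

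**Figure D3:**
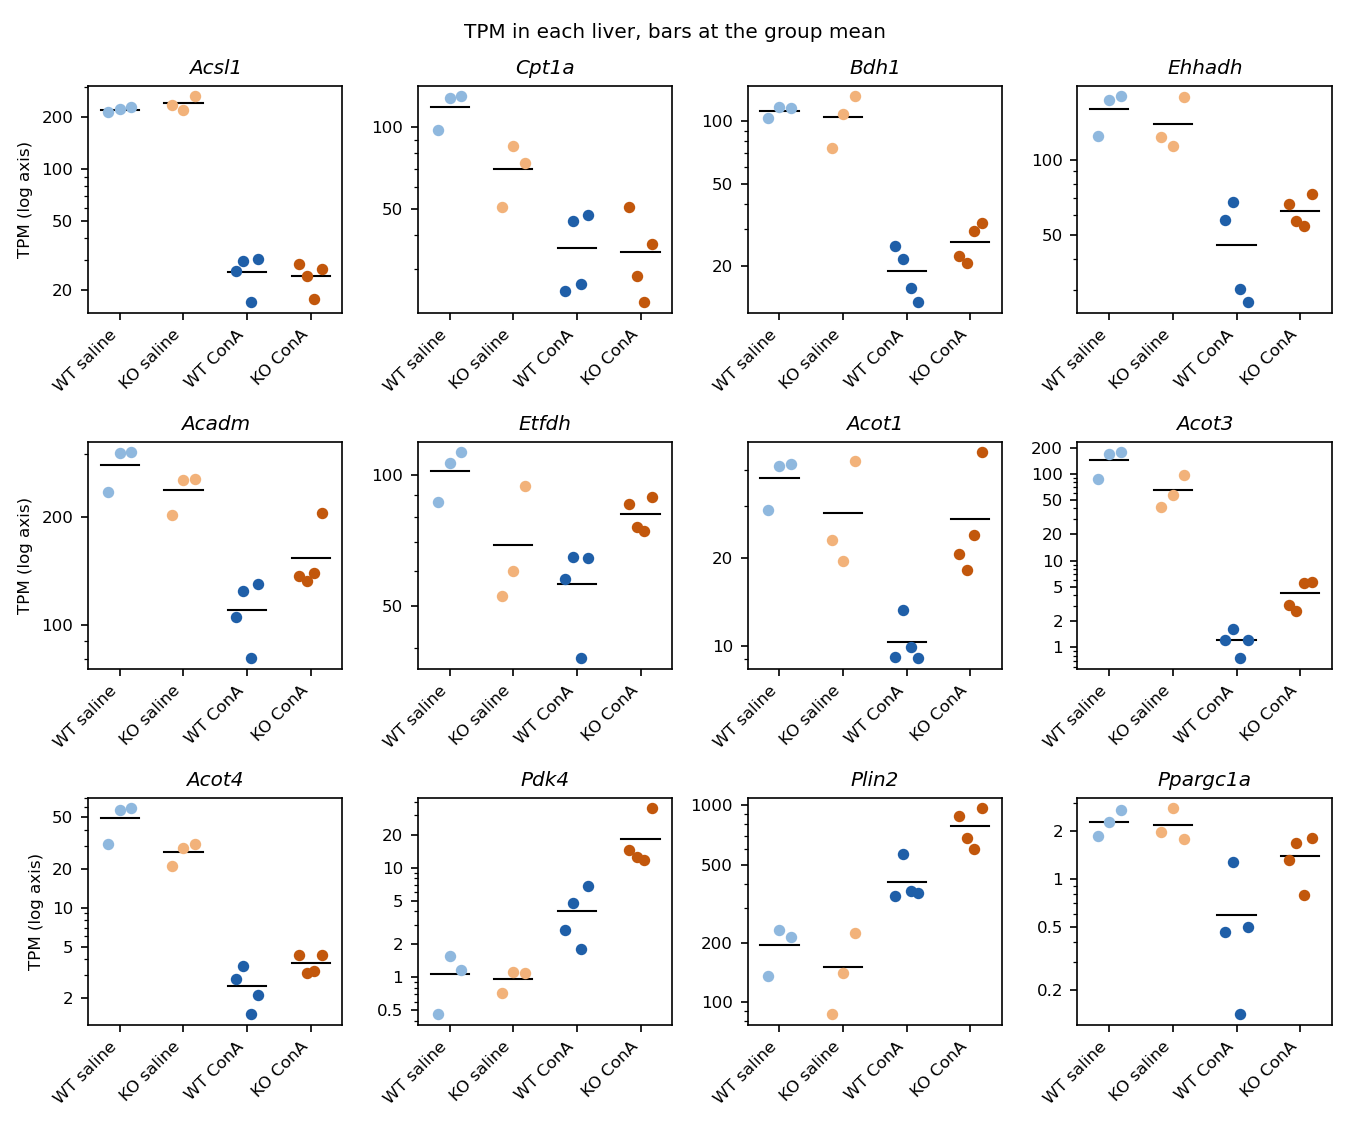
TPM on a log axis in each liver for 12 genes, with 1 point per mouse and a bar at the mean of each group. For Acsl1, Bdh1 and Acot3 all ConA points lie below all saline points, for Pdk4 and Plin2 all lie above, and for Etfdh, Acot1, Acot3, Pdk4 and Plin2 the KO ConA points lie above the WT ConA points without overlap.

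The second question was whether the pathway differed between genotypes without hepatitis. Under saline 1 of the 37 genes was lower and 1 higher in KO mice, against 12.9% lower and 6.30% higher of all 10459 genes tested. Cpt1a was 1.69-fold lower in KO (log2 fold change -0.77 ± 0.20, adjusted p = 0.0389), with the 3 KO values given above all under the 3 WT values. Etfb was 1.32-fold higher (0.39 ± 0.10, adjusted p = 0.0389), again without overlap, and with the shared sequence named above. Neither gene was called with the WT saline pair averaged, after rescaling, without filter or with all 14 libraries in the fit. As single mice were left out the number of calls ranged from 0 to 12. It was 12 without KO saline replicate 3, 8 without WT saline replicate 1 and 1 without KO saline replicate 2. It was 0 without KO saline replicate 1 or WT saline replicate 2 or 3. Of all genes, 2739 of 10586 were called without KO saline replicate 3 and 2234 of 10634 without WT saline replicate 1. Without KO saline replicate 2, 640 of 10663 were called. In the runs with 0 calls, the counts over all genes were 286 of 10577 without KO saline replicate 1, 51 of 10686 without WT saline replicate 2 and 45 of 10664 without WT saline replicate 3. After rescaling, the split of calls over all genes was 771 lower and 744 higher, and with the pair averaged 20 genes were called lower and 29 higher of 10675 tested. Among markers, the 5 tested for sinusoidal endothelial cells had a median log2 difference of 0.81 and the 5 for stellate cells one of 1.15, with 4 and 2 of them called higher in KO saline. The summed stellate markers were 19.9 to 79.2 TPM in WT saline and 76.1 to 127 in KO saline, and their part in the result was not tested. Of 7 hepatocyte markers 2 were called lower (Cyp2e1, -0.82, and Apob, -0.59) and 1 higher (Apoc3, 0.83), with a median of -0.16. Of 5 periportal markers 4 were above 0 (median 0.19), with Sds called higher (0.53). All 5 pericentral markers were below 0 (median -0.31, 1 called), as were all 6 Kupffer cell markers (median -0.63, none called). The Kupffer cell markers summed to 59.8 to 105.2 TPM in WT and 25.3 to 56.1 in KO mice.

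The third question was whether KO and WT livers differed after ConA. In limma 0 of the 36 tested genes were called, against 0.342% higher and 0.0856% lower of all 10519 genes tested. At an unadjusted p under 0.05 there were 12 of the 36 genes and 1753 of all genes. The median log2 difference was 0.30 over the 36 genes and 0.05 over all genes. For 9 genes all 4 KO livers lay above all 4 WT livers, which was so for 6.37% of all genes tested, and none of the 36 lay wholly below, as 4.11% of all genes did. These 9 were Acadvl, Acadm, Hadha, Decr1, Etfdh, Acot1, Acot3, Pdk4 and Plin2. The 4 with the smallest adjusted p were Acot3 (3.47-fold, 1.20 ± 0.23, adjusted p = 0.0580), Pdk4 (4.56-fold, 1.92 ± 0.38, adjusted p = 0.0613), Plin2 (1.92-fold, 0.94 ± 0.20, adjusted p = 0.0664) and Acot1 (2.63-fold, 1.23 ± 0.26, adjusted p = 0.0667). With all 14 libraries in the fit these 4 genes were called, and 640 of all 10519 genes were called, 416 higher and 224 lower. The fit of the 2 groups alone called 45 of all genes. After rescaling, 13 of all genes were called lower and 12 higher, and 0 of the 36 genes were called.

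For the carnitine shuttle genes and for Bdh1 no difference between the genotypes passed the test. The 95% intervals of the KO to WT difference were -0.53 to 0.39 for Acsl1, -0.66 to 0.56 for Cpt1a, -0.51 to 0.24 for Cpt2 and -0.36 to 0.32 for Slc25a20, on the log2 scale. For Bdh1 the interval was -0.02 to 0.95, and for Ehhadh -0.05 to 1.14. Acadm, Hadha, Decr1 and Etfdh had intervals above 0 (0.06 to 0.89, 0.15 to 0.73, 0.09 to 0.79 and 0.16 to 0.94) before correction for the number of genes tested, and none passed it. Hepatocyte markers had a median log2 difference of -0.05 and neutrophil markers one of 0.68 in this comparison, with none of the 7 and none of the 6 called. Summed neutrophil markers were 318 to 558 TPM in WT and 412 to 952 in KO mice. Hepatocyte markers summed to 59760 to 83450 TPM in WT and 53920 to 66560 in KO, and stellate markers to 22.0 to 63.65 and 50.8 to 101.4. Median differences were 0.64 for stellate, 0.36 for Kupffer and 0.22 for sinusoidal endothelial markers. They were 0.21 for pericentral and -0.10 for periportal markers, and no marker of these lists was called. The part of cell composition in this comparison was not tested.

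The fourth question was whether the response to ConA itself differed between genotypes, which the interaction of genotype and ConA tests. It was called for 5 of the 37 genes, Etfdh, Acot1, Acot3, Acot4 and Pdk4, all toward higher values in KO. Of all 11327 genes tested, 2.64% were called in that direction and 2.14% in the other. Acot3 fell less in KO by 2.36 ± 0.44 on the log2 scale (adjusted p = 0.0193). For Acot1 the difference between the responses was 1.68 ± 0.42 (adjusted p = 0.0382), for Acot4 1.26 ± 0.34 (adjusted p = 0.0481) and for Etfdh 1.14 ± 0.29 (adjusted p = 0.0413). Pdk4 rose more in KO by 1.95 ± 0.52 (adjusted p = 0.0465). For Acot3, Acot4 and Etfdh the fitted KO to WT difference was below 0 under saline (-1.16, -0.79 and -0.59, none called) and above 0 after ConA (1.20, 0.47 and 0.55, none called). The groups of all 3 genes overlapped under saline, and those of Acot4 also after ConA. For Acot1 the saline difference was -0.45 and the difference after ConA 1.23, and for Pdk4 these were -0.03 and 1.92.

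These 5 calls depended on single saline mice. None held with replicates 2 and 3 averaged, without WT saline replicate 2 or 3, or without KO saline replicate 1 or 2. Without KO saline replicate 3 the number was 8, without KO ConA replicate 4 it was 1, and without KO ConA replicate 1 or 2 it was 2. It was 3 without WT ConA replicate 3 and 6 without both ConA replicates 3, where Etfb was called lower. Of all genes, 541 of 11327 were called as reported. The counts were 529 of 11491 without KO saline replicate 3 and 1591 of 11270 without both ConA replicates 3. In the runs where none of the 5 held, few of all genes were called either. Without WT saline replicate 2 it was 27 of 11538, and without WT saline replicate 3 it was 22 of 11532. Without KO saline replicate 1 it was 33 of 11492, and without KO saline replicate 2 it was 63 of 11518. Leaving out KO ConA replicate 1, 2 or 4 left 364, 186 or 82 calls over all genes. After rescaling 2 calls held, for Acot3 and Etfdh, and without filter 1, for Acot3. The median interaction was 0.47 over the 37 genes and 0.14 over all genes, and rescaling moved these to 0.33 and 0.03. The interaction was above 0 for 4 of 8 genes of uptake and shuttle, all 5 thioesterases and all 10 genes of mitochondrial beta-oxidation (0.11 to 0.79, none of the 10 called), although Eci1 turned to the other side of 0 under rescaling and without KO saline replicate 1 or WT ConA replicate 4, and Acot2 without KO ConA replicate 4. Fabp1 and Etfb had values on the other side (-0.80, adjusted p = 0.0692, and -0.61, adjusted p = 0.0762). Among 7 hepatocyte markers Cyp2e1 was called higher (1.17, adjusted p = 0.0280) and Apoc3 lower (-1.18, adjusted p = 0.0334), and of 5 periportal markers Sds was lower (-1.35, adjusted p = 0.0280). All 6 Kupffer cell markers were above 0 (0.73 to 1.31, none called), and 5 of 6 neutrophil markers were (median 0.66, none called). Their part in the interactions was not tested. With the WT saline pair averaged, 28 of all 11535 genes tested were called in the interaction.

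**Figure D4:**
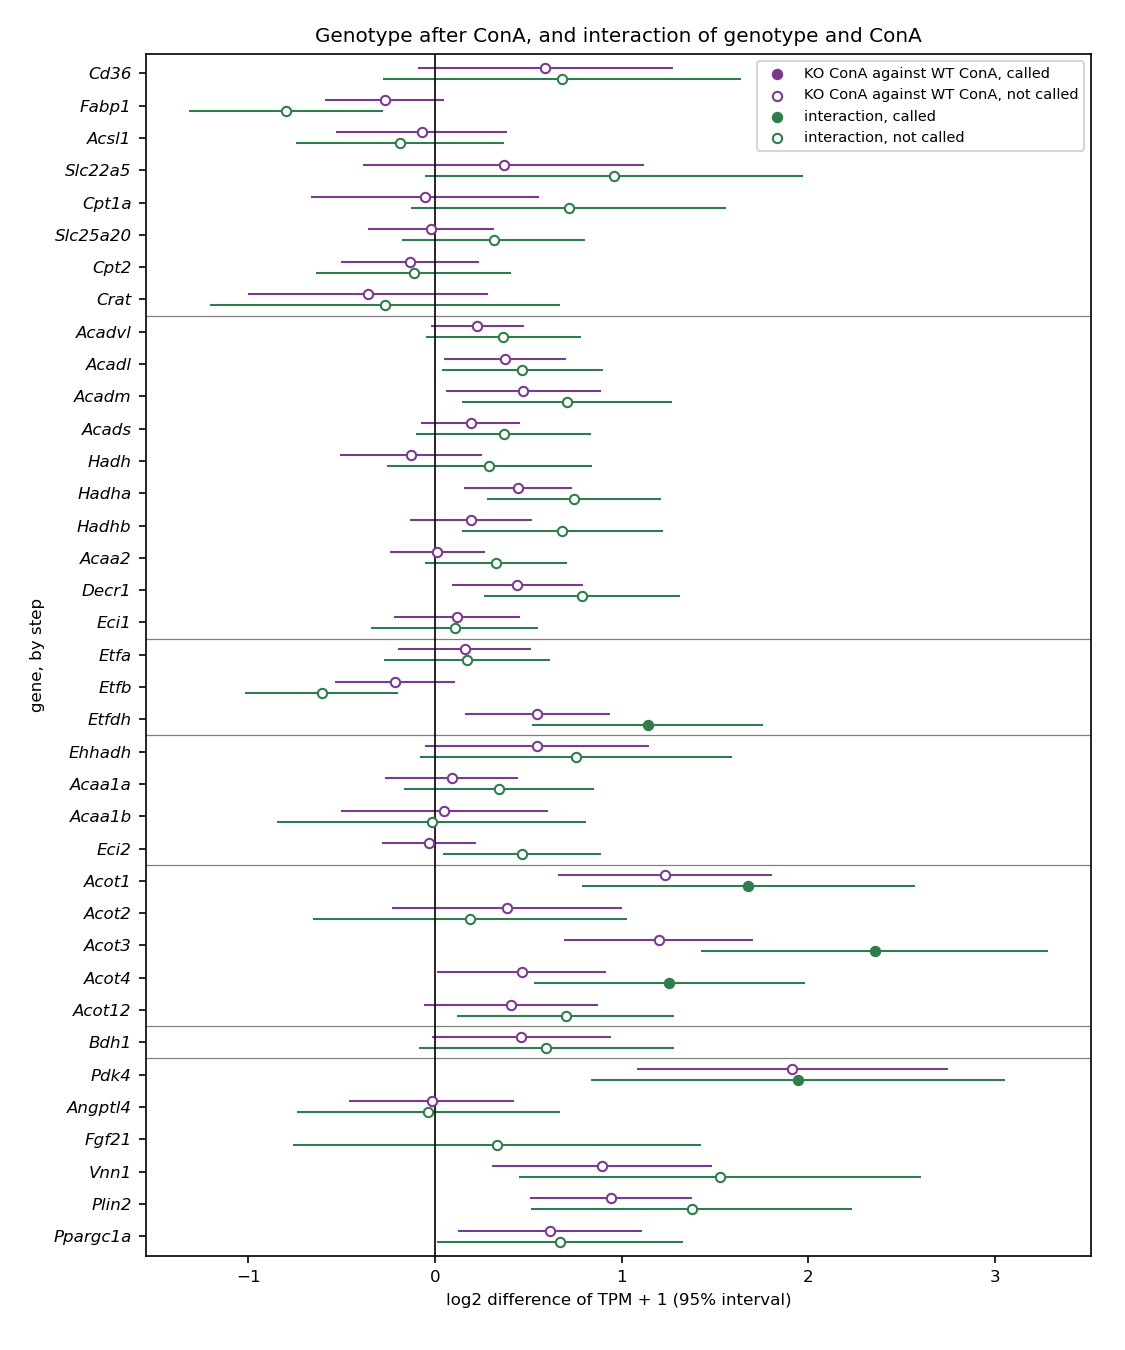
Log2 differences with 95% intervals for KO ConA against WT ConA (purple) and for the interaction of genotype and ConA (green), with genes grouped by step on the vertical axis and filled points for called genes. The filled points are the interactions of Etfdh, Acot1, Acot3, Acot4 and Pdk4, from 1.14 to 2.36, and every point of KO ConA against WT ConA is open.

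In 88 further genes of lipid oxidation, written as 7 lists by function, 57 of 83 tested fell and 7 rose in WT liver, and 52 of 82 fell and 9 rose in KO liver. Over all genes tested the shares were 31.0% lower and 22.0% higher in WT and 30.7% lower and 33.9% higher in KO. Peroxisomal lipid oxidation had 18 of 20 genes lower in WT and 17 of 20 in KO. Mitochondrial acyl-CoA oxidation had 12 of 15 lower in WT and 10 of 14 in KO. In fatty acid activation 3 of 9 were lower and 2 higher in WT, close to the shares over all genes, and 5 were lower and 2 higher in KO. Microsomal omega-oxidation had 4 of 5 lower in WT and 3 of 4 in KO. Lipolysis and lipid droplets had 6 of 11 lower and 3 higher in WT, and 6 lower and 4 higher in KO. Of 18 regulators of fatty acid oxidation, 10 fell and 1 rose in WT, and 9 fell and 2 rose in KO.

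By the smallest p, Decr2, the peroxisomal counterpart of Decr1, fell in WT liver (log2 fold change -2.06, adjusted p = 2.00e-06), and so did Sirt3, a mitochondrial deacetylase (-2.14, adjusted p = 4.38e-06). In KO liver the lipid droplet gene Cideb (-2.39, adjusted p = 5.42e-08), the kinase Pdk2 (-2.79, adjusted p = 2.10e-07) and Sirt3 (-2.23, adjusted p = 5.44e-07) fell. Pdk2 also fell in WT liver (-2.01, adjusted p = 1.15e-05), so that it fell in both genotypes while its relative Pdk4 rose in both.

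Ppara, the gene of PPAR alpha, was at 42.3 to 52.6 TPM in WT and 20.9 to 31.2 in KO mice under saline, and after ConA at 13.8 to 34.96 in WT and 9.43 to 24.2 in KO. Under saline it was lower in KO mice (-0.90, adjusted p = 0.0181), a call lost with the WT saline pair averaged (-0.85, adjusted p = 0.0877). Over all alternatives in that comparison its adjusted p ran from 0.00917 to 0.131. The very long-chain acyl-CoA synthetase Slc27a2 (-0.63, adjusted p = 0.0170) and Acad10 (-0.53, adjusted p = 0.0181) were lower in KO saline as well. In the interaction Acad10 was higher in KO (0.84, adjusted p = 0.0310). With the pair averaged, 49 of all 10675 genes were called under saline and 28 of 11535 in the interaction. Between the genotypes under saline 11 of 81 tested genes of these lists were lower and 2 higher in KO, where 12.9% and 6.30% of all genes were, so that the lower calls were near the background. In the interaction 4 of 84 were higher and 1 lower, where 2.64% and 2.14% of all genes were. In KO ConA against WT ConA, 1 of 80 was called, where 0.342% of all genes were called higher and 0.0856% lower. It was a gene of the list of ketone body metabolism that was higher in KO (1 of 6 tested there) and was 1 of the 4 higher in the interaction. Neither the droplet gene Hilpda (1.93, adjusted p = 0.0692) nor the lipase coactivator Abhd5 (0.66, adjusted p = 0.0848) was called.

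Sequence upstream of the start was at hand for 32 of the 37 genes, from RefSeq on GRCm38.p6. The 250 bases before the start were searched on both strands for a direct repeat with 1 base between its parts, NGGNCANAGGNCA, the form of site that PPAR alpha and RXR bind. These letters were chosen after the sequences had been looked at. They occur in 2 of the 32 genes, Fabp1 and Acot4, and in 0.677% of the 27025 windows of all genes. The windows of these genes are shown because Acot4 had one of the largest falls and Fabp1 the highest level of the 37, and the match is in capitals (on the strand shown it reads as the reverse complement). The Fabp1 window is chr6:71199629-71199878 and the Acot4 window chr12:84038129-84038378, both on the plus strand, and the latter lies inside the annotated gene, upstream of a later transcript start.
Fabp1: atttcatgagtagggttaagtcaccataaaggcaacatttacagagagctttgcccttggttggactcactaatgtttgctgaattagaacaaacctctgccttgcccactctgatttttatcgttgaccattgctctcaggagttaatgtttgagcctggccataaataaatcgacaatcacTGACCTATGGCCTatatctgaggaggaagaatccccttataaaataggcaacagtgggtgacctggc
Acot4: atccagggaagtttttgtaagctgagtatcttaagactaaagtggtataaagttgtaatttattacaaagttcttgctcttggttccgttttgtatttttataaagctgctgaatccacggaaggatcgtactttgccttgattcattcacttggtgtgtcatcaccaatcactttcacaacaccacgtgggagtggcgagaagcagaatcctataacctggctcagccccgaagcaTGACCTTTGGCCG
In Fabp1 the match covers the bases from 67 to 55 before the start, and in Acot4 those from 13 to 1 before it. The other 30 windows do not hold these letters, Acot1 and Acot3 included.

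The same windows were searched for the palindrome TTCNNNGAA, the core that STAT factors recognise, which is its own reverse complement. It occurs in 3 of the 32 genes, Cpt2, Hadha and Hadhb, and in 7.07% of all windows, so that the matches were near the background. Hadha and Hadhb lie head to head on chromosome 5 with 272 bases between them, chr5:30154981-30155252, and their match is the same 9 bases at chr5:30155128-30155136. Cpt2, which also holds a match, fell in both genotypes. The window of Hadhb, chr5:30155003-30155252 on the plus strand, is shown with its match in capitals. It was chosen because both subunits of the trifunctional protein fell in WT liver and were not called in KO liver. As reported, the interaction of genotype and ConA was called for neither subunit, so a difference between the genotypes in this fall is not shown. A part of the motif in these changes was not tested.
Hadhb: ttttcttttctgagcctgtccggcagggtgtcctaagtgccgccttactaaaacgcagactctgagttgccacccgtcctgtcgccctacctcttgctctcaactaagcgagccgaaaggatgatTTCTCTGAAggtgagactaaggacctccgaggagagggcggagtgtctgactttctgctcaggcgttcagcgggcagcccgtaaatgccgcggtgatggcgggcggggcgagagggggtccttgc
The match covers the bases from 125 to 117 before the start of Hadhb and those from 156 to 148 before the start of Hadha. Mean TPM in the 4 groups were 129 ± 12.7, 106 ± 27.2, 86.1 ± 10.8 and 117 ± 10.04 for Hadha, and 158 ± 20.3, 115 ± 33.2, 93.9 ± 16.5 and 106 ± 5.18 for Hadhb (SD, n = 3 for saline and 4 for ConA, in the order saline WT, saline KO, ConA WT, ConA KO).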

How the data were processed

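Liver RNA from 14 mice was sequenced as single-end reads of 50 bases from total RNA. The authors deposited 1 table of TPM per mouse, with values rounded to 2 decimals. The submitters' processing notes name Bowtie2, RSEM 1.3.1 and GRCm38.p6, whereas the study's methods name STAR and HTSeq, and it is not known which made these tables. Read depth is not known from TPM, so no counting interval can be given and the spread between mice is the only error. The labels give a replicate number for each library but do not state that each came from 1 mouse. Each library was therefore taken as 1 mouse. Whether the nearly identical WT saline pair came from separate mice is not known.

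Groups were taken from the labels. Tests used limma 3.58.1 in R 4.3.3 (lmFit, eBayes with trend) on log2(TPM + 1), for genes that reached 1 TPM in a number of libraries no lower than the size of the smaller group, with Benjamini-Hochberg adjustment over all genes tested and calls under 0.05. The study used a count test, which TPM does not allow. Each comparison of 2 groups used those libraries alone, and the interaction used all 14. All values are two-sided. Scripts were tested on simulated data. Tables and figures were made with Python 3.11.15, pandas 2.3.3 and matplotlib 3.10.9.

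The 37 genes, their steps, the further lists and the alternatives were chosen with earlier results of these data known. Values in every mouse were given for the called gene with the largest change of its step, for a set list (Cpt1a, Cpt2, Bdh1, Ehhadh, Acadm, Hadha, Cd36, Pdk4, Angptl4, Fgf21, Vnn1, Plin2, Ppargc1a), and for genes called between genotypes or in the interaction. From the further lists up to 4 genes per comparison with the smallest p were taken, and some genes among these are not reported here. The alternatives tried were no filter or one at 5 TPM, a pseudocount of 0.1, rescaling by the median ratio of libraries, robust eBayes, the replicate number as a block, all 14 libraries in 1 fit, WT saline replicates 2 and 3 averaged, each mouse left out in turn and, chosen after seeing the data, both ConA replicates 3 left out together. The RefSeq table gave the upstream sequences, and shared stretches of 50 bases were counted in GENCODE vM21 transcripts.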

Additional observations from a re-analysis of the deposited data

Results flagged for a closer look

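In 7 of 74 groups of 4 mice, 1 mouse lay far from the other 3 by Dixon's ratio, which chance gives in about 1 of 20 groups. In WT ConA these were Hadhb in replicate 3 at 69.5 TPM, Etfb in replicate 3 at 702 TPM, Acaa2 in replicate 1 at 486 TPM, Angptl4 in replicate 1 at 73.0 TPM, Plin2 in replicate 2 at 564 TPM and Acaa1b in replicate 4 at 149 TPM. In KO ConA it was Acadm in replicate 4 at 205 TPM. Hadhb and Etfb were set apart by the WT ConA library with the low median ratio to the others.

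The responses to ConA differed between the genotypes by the interaction test for Etfdh (1.14 on the log2 scale), Acot1 (1.68), Acot3 (2.36), Acot4 (1.26) and Pdk4 (1.95). None of the 5 passed the test with WT saline replicates 2 and 3 averaged.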

How the results depend on the processing

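All counts here are of the 37 genes called. Those for ConA against saline spanned 30 to 34 for WT mice and 21 to 25 for KO mice as single animals were left out, and stayed within 1.5 times the reported 34 and 23 under every alternative run. KO saline against WT saline had 2 calls as reported, 0 without filter, 0 after rescaling, 0 with all 14 libraries in the fit, 0 with the WT saline pair averaged, and 0 to 12 with single mice left out. KO ConA against WT ConA had 0 calls as reported, 4 with all 14 libraries, and 0 to 0 with single mice left out. The interaction had 5 calls as reported, 3 with a pseudocount of 0.1, 1 without filter, 2 after rescaling, 0 with the pair averaged, and 0 to 8 with single mice left out. The causes of these shifts were not tested, except that averaging or leaving out a mouse also leaves fewer samples. Over all genes, rescaling turned 36 higher and 9 lower calls in KO ConA against WT ConA into 12 and 13, and averaging the pair left 19 higher and 9 lower calls in the interaction, of 299 and 242. No called gene changed sign under any alternative run. Depth is unknown, so what it limits could not be assessed.

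With the replicate number as a block, KO saline against WT saline had 12 calls, KO ConA against WT ConA 1 (Pdk4) and the interaction 3. ConA against saline had 35 in WT and 25 in KO. Over all genes, the block gave 2423 calls of 10459 in KO saline against WT saline and 140 of 10519 in KO ConA against WT ConA. It gave 358 of 11327 in the interaction, 5065 of 10768 for ConA in WT and 6544 of 10988 in KO. The correlation of same-numbered samples' deviations ran from -0.20 to 0.41 and was over 0.1 for every number in no comparison, so the numbers were not taken to pair the mice, and not every sample correlated best with its own number.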

Other observations

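Hilpda, which inhibits the lipase of lipid droplets and was picked out after its values were seen, rose with Plin2. It was at 1.28 to 2.12 TPM in WT and 2.16 to 2.94 in KO mice under saline, and after ConA at 11.8 to 25.4 in WT and 30.4 to 153.8 in KO. The log2 fold change after ConA was 2.73 in WT and 4.34 in KO. All KO ConA livers lay above all WT ConA livers, which was so for 6.37% of all genes tested. In limma this difference between the genotypes was not called (1.93, adjusted p = 0.0692). Cideb, another droplet gene, fell in KO liver (-2.39), and every WT ConA liver was below every WT saline liver. Droplet genes thus moved in both directions.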
